A study of Homo sapiens with 6 samples.

Results

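The transcripts described here are those of 51 genes that act at the G1/S transition of the cell cycle or in DNA replication. They were taken by name from a list of licensing factors, E2F transcription factors, polymerases, nucleotide enzymes and chromatin assembly factors. On the array, 99 probe sets carry one of these names as their single gene symbol, and 92 of them were bright enough to be tested. All 51 genes had at least 1 tested probe set, of 12810 genes measured in all. The cells were K562, an established leukaemia line that carries the BCR-ABL1 fusion kinase, and the labels mention no synchronisation. The 3 tested wells received 25 nM CA for 3 h, and the 3 wells of the comparison received the vehicle DMSO for 3 h. CA is named in the series title as cortistatin A, a steroidal alkaloid that inhibits the Mediator kinases CDK8 and CDK19. Each well gave 1 array (Affymetrix Human U133 Plus 2.0), and values are log2 signals after RMA, a method that brings all arrays to a common overall level.

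A cell enters S phase when cyclin E and its kinase partner, together with cyclin D kinases, phosphorylate the retinoblastoma protein and release E2F factors, which switch on the genes of replication. Before that, the origin recognition complex, CDC6 and CDT1 load the MCM helicase on DNA, a step called licensing that geminin blocks once S phase has begun. CDC45 and the GINS complex then activate the helicase, and polymerases, clamp loaders and ligase copy the strands. In an unsynchronised culture, fewer cells in one phase and less RNA per cell cannot be told apart.

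Measured on 6 arrays, no member passed the test, and the differences that stood out were small and downward. The largest were in CCNE2, E2F8, CDT1 and E2F2, which were lower on the CA arrays by 21.8%, 17.2%, 14.2% and 12.8%. Of the 9 members with an unadjusted p under 0.05, 5 were cyclin E or E2F genes. However, E2F1, of the same group, had the highest log2 difference (CA minus DMSO) of all members. Most polymerase, clamp and nucleotide genes were close to 0, and differences between groups of members were not tested. By limma with Benjamini-Hochberg adjustment over 27307 probe sets, 0 of 51 members had an adjusted p under 0.05, against 0.0859% of all measured genes. Without adjustment, 9 members had p under 0.05 with a lower value in CA, and 0 with a higher one. The shares over all measured genes were 5.02% lower and 3.59% higher. In 20 members all 3 CA arrays lay below all 3 DMSO arrays, against 9.95% of measured genes. In 0 members did all CA arrays lie above, against 6.14%. The fitted value was lower in CA for 42 members and higher for 9, where 56.5% of all measured genes were lower. A stricter filter keeps probe sets with a mean signal at or above the 75th percentile, and all 51 members pass it. Of the 7663 genes left, 13% had all CA arrays below all DMSO arrays, against 20 members. At an unadjusted p under 0.05, 8.64% of those genes and 12 members were lower.

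The median log2 difference was -0.05 for the members and -0.01 for all measured genes. The standard errors of the members ran from 0.04 to 0.08 on the log2 scale, and only the 9 members with an unadjusted p under 0.05 had a 95% confidence interval that left out 0. A lower position of this pathway was already known from earlier work on these arrays, so the counts are not independent evidence of it. The direction is relative to the other transcripts. Scaling to the 3' probe sets of added polyadenylated control RNAs would raise every log2 difference by 0.20 and put the members' median at 0.14, against 0.18 for all measured genes. On that scale CCNE2, E2F8, CDT1 and E2F2 would still be lower in CA and the other members higher. Scaling to the 5' probe sets of the same RNAs would put the members' median at -0.01, against 0.03 for all measured genes. On that 5' scale 30 of 51 members would be lower in CA. Relative to all measured genes the members' median was -0.04 on each of these scales.

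**Figure D1:**
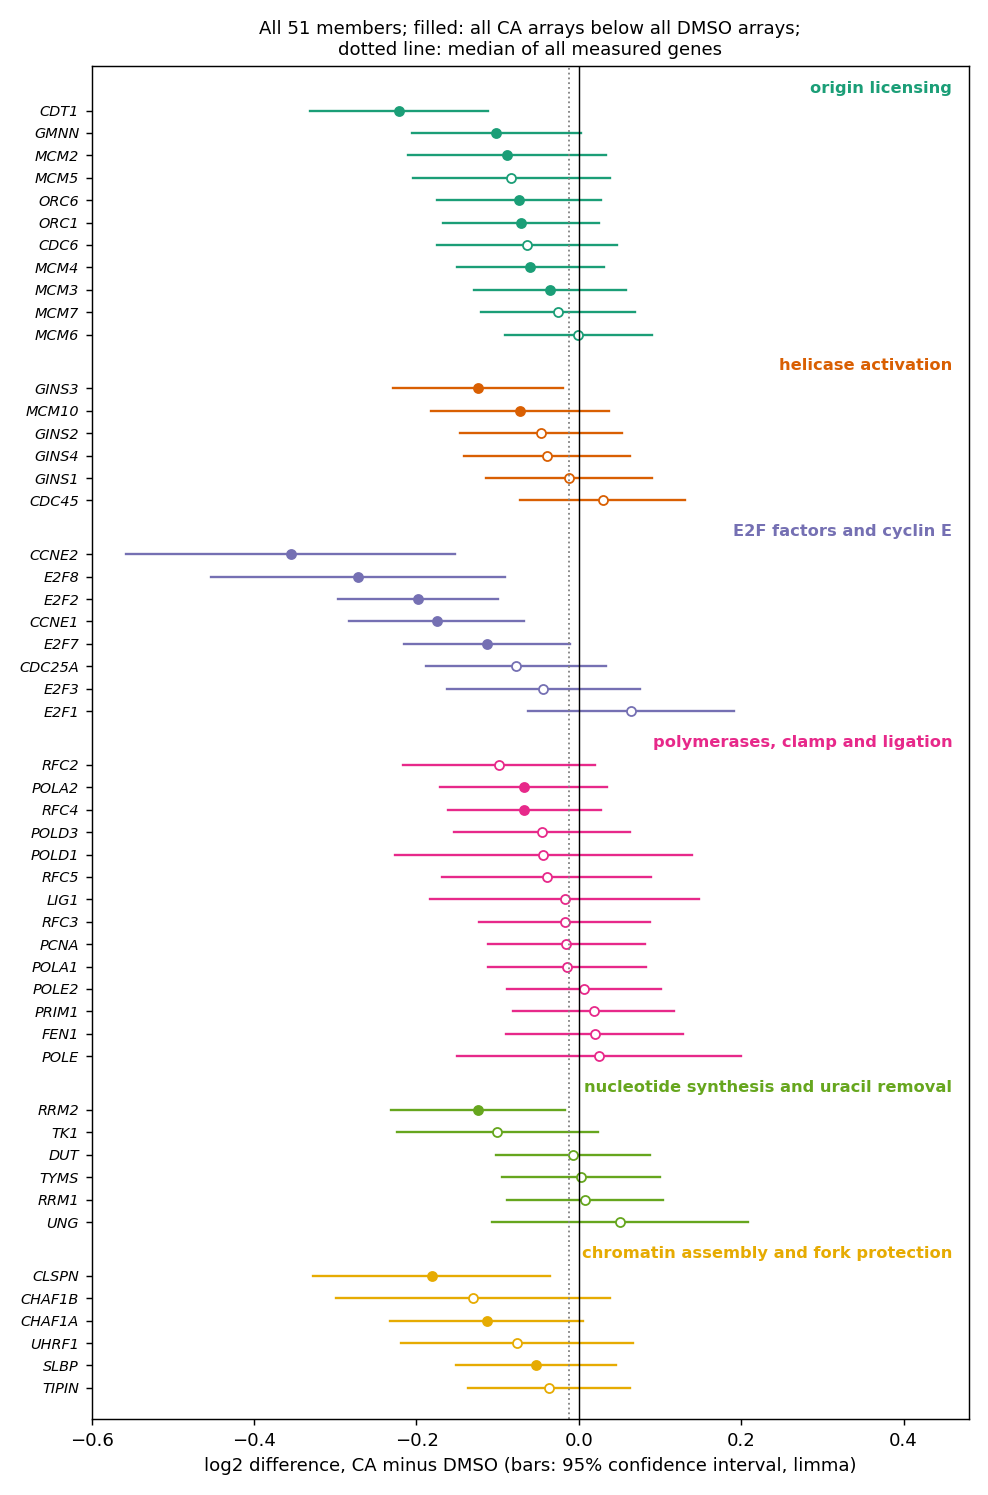
Log2 difference, CA minus DMSO, of all 51 members (x axis), grouped by role from top to bottom, with 95% confidence intervals from limma; filled points mark the 20 genes whose CA arrays all lay below their DMSO arrays. CCNE2, E2F8, CDT1 and E2F2 lie farthest to the left, and 10 of 14 genes of the polymerase group are below 0, none lower than -0.10. With 3' control scaling all but the 4 named genes would lie right of 0. With 5' control scaling 30 of the 51 would lie left of 0.

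E2F factors bind a short sequence near the start of many of these genes, so RefSeq promoter windows (GRCh38.p14, 250 bases before to 50 after a start) were searched on both strands. A window was found for 45 of the 51 members. The E2F letters searched were TTTCCCGC, TTTCGCGC, TTTGCCGC and TTTGGCGC, and 27 of the 45 members (60.0%) held at least 1 of them, against 3.99% of 27305 genes in the table. Among members with unadjusted p under 0.05, 4 of 7 held a match (57.1%), and among the other members 23 of 38 did (60.5%). The CCAAT box, searched as CCAAT, was in 62.2% of members and 39.7% of all genes. The CHR element of G2/M genes, searched as TTTGAA and TTCGAA, was in 11.1% of members and 19.5% of all genes. No motif searched holds another in full, and a match is a description of the sequence only.

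The 100 bases before the start of 4 genes are shown, with E2F matches in capitals. Of these, 2 (E2F2 and CDT1) were among the members with the most negative log2 differences, CA minus DMSO. The other 2 (E2F1 and TYMS) were not. E2F1 and TYMS were picked after their values were seen. Each is written 5' to 3' on the strand of its gene, and GCGGGAAA and GCGGCAAA are matches on the opposite strand.
E2F2, chr1:23531234-23531333, minus strand: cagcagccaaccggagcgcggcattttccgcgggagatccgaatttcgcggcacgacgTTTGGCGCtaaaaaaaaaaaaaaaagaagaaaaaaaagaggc
CDT1, chr16:88803689-88803788, plus strand: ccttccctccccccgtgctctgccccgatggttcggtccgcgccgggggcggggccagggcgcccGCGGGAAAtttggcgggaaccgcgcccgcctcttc
E2F1, chr20:33686386-33686485, minus strand: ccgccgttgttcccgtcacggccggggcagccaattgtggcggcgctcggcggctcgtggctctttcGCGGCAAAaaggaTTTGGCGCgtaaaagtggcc
TYMS, chr18:657553-657652, plus strand: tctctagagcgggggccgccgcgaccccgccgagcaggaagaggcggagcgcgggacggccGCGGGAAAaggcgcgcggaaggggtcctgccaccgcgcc
E2F2, CDT1 and TYMS held 1 match each in this stretch, and E2F1 held 2. The same kind of letters thus stood before genes with and without a lower value in CA.

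The group of E2F factors and cyclin E genes also holds the phosphatase gene CDC25A, here and in its later medians. Of its 8 genes, 5 had unadjusted p under 0.05 with a lower value in CA (5.02% of all measured genes). The same number had CA arrays all below DMSO arrays (9.95%). The median log2 difference of the 8 genes was -0.14. CCNE2, which encodes cyclin E2, an activator of CDK2, had log2 signals of 7.737, 7.782 and 7.634 on the CA arrays, against 7.999, 8.245 and 7.974 on the DMSO arrays. The groups did not overlap, and DMSO array 2 stood above the other DMSO arrays. The log2 difference of CCNE2 was -0.36 (95% confidence interval -0.56 to -0.15, limma adjusted p = 0.304). A second, dimmer CCNE2 probe set had -0.13 (-0.31 to 0.05), and there the groups overlapped.

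CCNE1, the gene of cyclin E1, had 7.95, 7.91 and 7.93 in CA, against 8.13, 8.14 and 8.05 in DMSO. The CA arrays lay within a narrow band below all DMSO arrays. Its log2 difference was -0.18 (-0.28 to -0.07, limma adjusted p = 0.331). Both cyclin E genes were thus lower on the CA arrays, without passing the test.

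E2F2, one of the activating E2F factors, had 7.05, 7.03 and 7.05 in CA, against 7.20, 7.25 and 7.27 in DMSO. The 3 CA values were nearly equal, and the gap to the lowest DMSO array was 0.15. The log2 difference was -0.20 (-0.30 to -0.10, limma adjusted p = 0.247). The other tested E2F2 probe sets were dim and split in sign, with log2 differences of 0.13 (-0.03 to 0.29) and -0.07 (-0.39 to 0.26).

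E2F8 and E2F7 encode atypical E2F factors that repress E2F target genes during S phase. E2F8 had 7.90, 7.98 and 7.75 in CA, against 8.09, 8.25 and 8.11 in DMSO, a log2 difference of -0.27 (-0.45 to -0.09, limma adjusted p = 0.353). E2F7 had 7.78, 7.77 and 7.70 in CA, against 7.88, 7.87 and 7.84 in DMSO, a log2 difference of -0.11 (-0.22 to -0.01, limma adjusted p = 0.491). In both genes every CA array was below every DMSO array. A dim second E2F7 probe set had 0.10 (-0.08 to 0.29).

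The remaining activators did not share this. E2F1 had 6.59, 6.61 and 6.74 in CA, against 6.58, 6.62 and 6.56 in DMSO, with a log2 difference of 0.06 (-0.06 to 0.19), the highest of all members, and its dimmer second probe set had -0.04. E2F3 had 9.76, 9.65 and 9.66 in CA, against 9.69, 9.76 and 9.76 in DMSO, with -0.04 (-0.16 to 0.08), and its other probe set had 0.08. In both genes the groups overlapped. CDC25A, the phosphatase that activates CDK2, had -0.08 (-0.19 to 0.03). Differences between these genes were not tested.

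**Figure D2:**
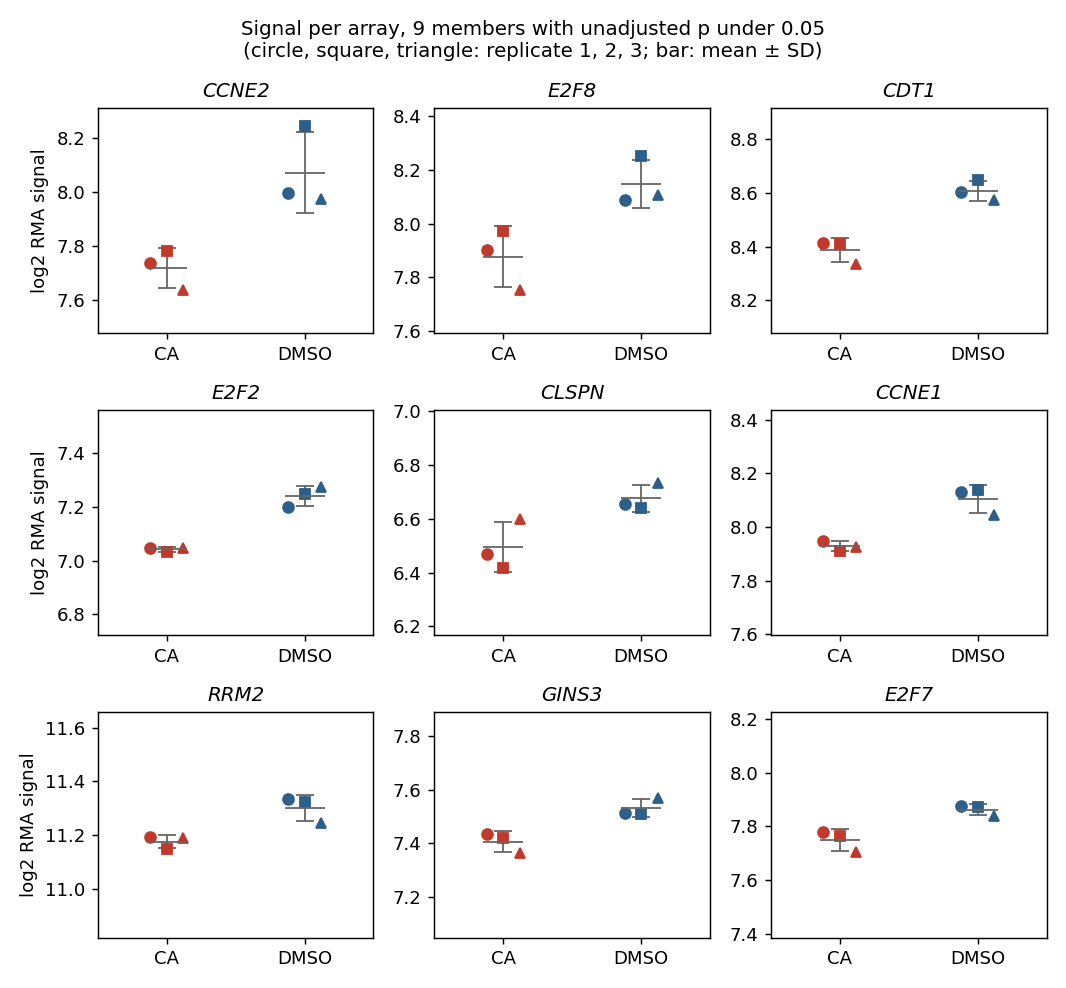
Log2 RMA signal on each array (y axis, the same span in every panel) for the 9 members with unadjusted p under 0.05, CA left and DMSO right, with mean and SD of 3 arrays each. On this scale the 3 CA arrays lie below the 3 DMSO arrays in every panel, and none of the 9 had an adjusted p under 0.247.

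In origin licensing all 11 fitted values, from the brightest probe sets, were lower in CA on the RMA scale (56.5% of all measured genes). With 3' control scaling, CDT1 alone was lower. The median log2 difference was -0.07, and in 7 genes the CA arrays were all below the DMSO arrays, against 9.95% of measured genes. Only CDT1 had an unadjusted p under 0.05. CDT1, which brings the MCM helicase to origins and is destroyed in S phase, had 8.41, 8.41 and 8.34 in CA, against 8.60, 8.65 and 8.58 in DMSO. The groups were separated by 0.16. The log2 difference was -0.22 (-0.33 to -0.11, limma adjusted p = 0.247). This probe set has the suffix for possible cross-hybridisation, and the second CDT1 probe set had -0.06 (-0.29 to 0.17) with overlapping groups.

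GMNN encodes geminin, the inhibitor of CDT1. It had 11.28, 11.25 and 11.27 in CA, against 11.42, 11.36 and 11.33 in DMSO. The groups did not overlap, and the log2 difference was -0.10 (-0.21 to 0.0025, limma adjusted p = 0.550). The loading factor CDC6 had -0.06 (-0.18 to 0.05). ORC1 and ORC6, subunits of the origin recognition complex, had -0.07 each, with intervals that included 0 and CA arrays that all lay below the DMSO arrays.

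The 6 subunits of the MCM helicase ran from -0.09 for MCM2 (-0.21 to 0.03) to 0.00 for MCM6 (-0.09 to 0.09). Between them lay MCM5 (-0.08), MCM4 (-0.06), MCM3 (-0.04) and MCM7 (-0.03). In MCM2, MCM3 and MCM4 all CA arrays were below all DMSO arrays, by a gap of 0.0556 in MCM4 but of only 0.00256 in MCM2 and 0.00174 in MCM3. MCM6 had 10.81 on each CA array, against 10.81, 10.82 and 10.80 on the DMSO arrays. The intervals of all 6 subunits include 0. These values are from the brightest probe sets. A second MCM7 probe set had 0.07 (-0.08 to 0.22), and those of MCM5 and MCM6 had -0.01 and -0.07. Of 5 tested MCM4 probe sets 3 were lower and 2, both dimmer, higher, and in all but the brightest the groups overlapped.

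Of the 6 genes of helicase activation, 5 had lower fitted values on the RMA scale (0 with 3' control scaling), against 56.5% of all measured genes. GINS3 alone had an unadjusted p under 0.05. GINS3, a subunit of the GINS complex, had 7.44, 7.42 and 7.36 in CA, against 7.51, 7.51 and 7.57 in DMSO. Its log2 difference was -0.12 (-0.23 to -0.02, limma adjusted p = 0.453), and its second probe set had -0.06 (-0.19 to 0.06). The other GINS genes had -0.05 (GINS2), -0.04 (GINS4) and -0.01 (GINS1), with intervals that included 0. CDC45, which joins GINS and MCM in the active helicase, had 10.20, 10.27 and 10.20 in CA, against 10.19, 10.18 and 10.22 in DMSO, with overlapping groups. Its log2 difference was 0.03 (-0.07 to 0.13). MCM10, which helps to start the helicase, had -0.07 (-0.18 to 0.04).

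The genes of the polymerases, the sliding clamp and ligation gave 0 of 14 at an unadjusted p under 0.05 and a median of -0.02. The range was -0.10 to 0.03. RFC2, a subunit of the clamp loader, had the largest difference. It had 9.18, 9.10 and 9.08 in CA, against 9.16, 9.25 and 9.24 in DMSO, a log2 difference of -0.10 (-0.22 to 0.02, limma adjusted p = 0.608), and CA array 1 lay among the DMSO arrays. The other loader subunits had -0.07 (RFC4), -0.04 (RFC5) and -0.02 (RFC3). PCNA, the clamp itself, had 11.27, 11.28 and 11.24 in CA, against 11.29, 11.30 and 11.25 in DMSO, a difference of -0.02 (-0.11 to 0.08) with overlapping groups.

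In the primase and polymerase alpha complex, which starts each strand, POLA2 had -0.07, POLA1 -0.01 and PRIM1 0.02. For polymerase epsilon, which copies the leading strand, POLE had 0.03 and POLE2 0.01, and for polymerase delta POLD3 had -0.05 and POLD1 -0.04. FEN1, the flap nuclease of lagging strand processing, had 0.02 and LIG1, the replicative ligase, -0.02. A second, dimmer FEN1 probe set had 0.08 (-0.02 to 0.18), and there all CA arrays lay above all DMSO arrays. The lower bound of the interval was -0.11 for PCNA, and it was -0.15 for POLE, -0.18 for LIG1 and -0.23 for POLD1, whose arrays varied more. Of the 14 genes, RFC4 and POLA2 had CA arrays all below DMSO arrays, against 9.95% of all measured genes. Lower fitted values were found in 10 of the 14, against 56.5% of all measured genes.

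Genes of nucleotide synthesis were split, with 3 lower and 3 higher fitted values and a median of 0.00. RRM2, the regulated small subunit of ribonucleotide reductase, had 11.19, 11.15 and 11.19 in CA, against 11.33, 11.32 and 11.25 in DMSO. Its log2 difference was -0.12 (-0.23 to -0.02, limma adjusted p = 0.461), and its second probe set had -0.08 with groups that did not overlap either. RRM1, the large subunit, had 0.01 (-0.09 to 0.10). A second RRM1 probe set had 8.18, 8.12 and 7.95 in CA, against 7.92, 7.89 and 7.89 in DMSO, a log2 difference of 0.19 (0.03 to 0.35, limma adjusted p = 0.456). The probe sets of RRM1 therefore did not give 1 value, and the second was singled out after it was seen. It is the 1 member probe set higher in CA at an unadjusted p under 0.05.

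TYMS, thymidylate synthase, and DUT, which removes dUTP, had groups that overlapped at their brightest probe sets. DUT had 12.27, 12.22 and 12.25 in CA, against 12.24, 12.26 and 12.27 in DMSO, a log2 difference of -0.01 (-0.10 to 0.09). TYMS had 12.20, 12.14 and 12.18 in CA, against 12.18, 12.18 and 12.15 in DMSO, a log2 difference of 0.00 (-0.09 to 0.10). A second, dimmer TYMS probe set had 0.06 (-0.03 to 0.16), and there all CA arrays lay above all DMSO arrays. TK1, the thymidine kinase of S phase, had -0.10 (-0.22 to 0.02) and UNG, the uracil glycosylase, 0.05 (-0.11 to 0.21).

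All 6 genes of chromatin assembly and fork protection had lower fitted values on the RMA scale (0 with 3' control scaling). Of all measured genes 56.5% did on the RMA scale. The median of the 6 genes was -0.09. CLSPN encodes claspin, which links a stalled fork to the checkpoint kinase CHK1. It had 6.47, 6.42 and 6.60 in CA, against 6.65, 6.64 and 6.73 in DMSO, a log2 difference of -0.18 (-0.33 to -0.04, limma adjusted p = 0.428). The gap between the groups was 0.04, and the other tested probe sets of CLSPN, both dimmer, had 0.05 and 0.22, so that the gene's mean over its probe sets was 0.03. SLBP, which binds the stem-loop of histone mRNAs, had 11.005, 11.007 and 10.993 in CA, against 11.076, 11.075 and 11.012 in DMSO. Its log2 difference was -0.05 (-0.15 to 0.05, limma adjusted p = 0.761), and the groups were apart by only 0.0045.

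CHAF1A and CHAF1B, subunits of the histone chaperone that follows the fork, had -0.11 (-0.23 to 0.01) and -0.13 (-0.30 to 0.04). The 3 tested probe sets of CHAF1A were all lower in CA. UHRF1, which recruits the maintenance DNA methyltransferase to new DNA, had -0.08 (-0.22 to 0.07). TIPIN, a fork protection factor, had -0.04 (-0.14 to 0.06).

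The choice of probe set matters for these genes. Of 29 genes with more than 1 tested probe set, 13 had all of them lower, 3 all of them higher, and 13 both signs. Over the 92 probe sets, 66 were lower and 26 higher in CA, and 0 were called by limma, against 0.0952% of all tested probe sets. At an unadjusted p under 0.05, 9 were lower and 1 higher. The shares at that p over all tested probe sets were 4.76% lower and 4.55% higher. In 22 probe sets the CA arrays were all below the DMSO arrays and in 4 all above, against 8.52% and 7.09%. With the mean of a gene's probe sets in place of the brightest, the median of the cyclin E and E2F genes was -0.06 instead of -0.14, and that of all members was -0.04. E2F2 then had -0.05 and E2F7 -0.0043, while CCNE2 had -0.24 and CDT1 -0.14.

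The arrays contributed unequally. As the median deviation from each gene's own mean, the members were at 0.00, -0.05 and -0.03 on CA arrays 1, 2 and 3, against 0.02, 0.04 and 0.03 on the DMSO arrays. CA array 1 thus lay nearer to the DMSO arrays than the other CA arrays did, with 28 members below their own mean, against 40 and 42 on CA arrays 2 and 3. It also stood apart over all tested probe sets, at -19.0 on the second principal component where the other arrays lay between 0.338 and 7.20. Without CA array 1, 13 members were lower at an unadjusted p under 0.05 (all measured genes 6.57%) and the median was -0.07. Without CA array 2 it was 5 members (3.57%) and -0.06. For the cyclin E and E2F genes the CA arrays were at -0.05, -0.07 and -0.09, against 0.07, 0.09 and 0.06 in DMSO, so all 3 CA arrays lay below.

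**Figure D3:**
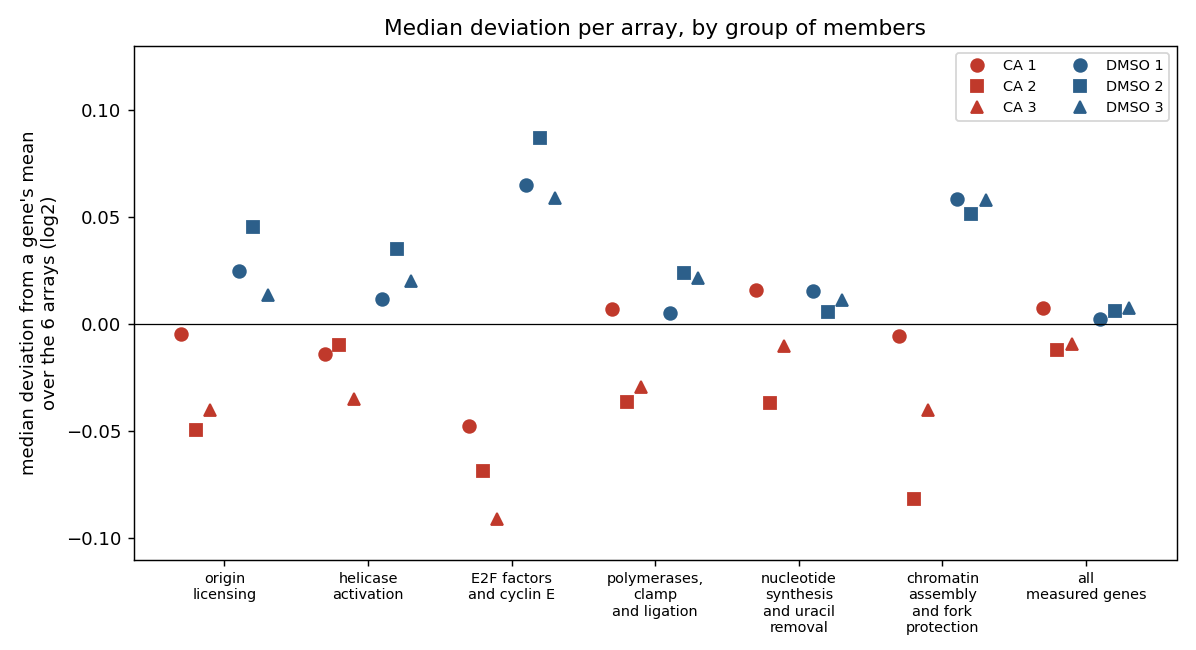
Median deviation of each array from a gene's mean over the 6 arrays (y axis, log2) for 6 groups of members and for all measured genes, CA in red left of DMSO in blue. The arrays are farthest apart for E2F factors and cyclin E (-0.09 to -0.05 in CA, against 0.06 to 0.09 in DMSO), while for nucleotide synthesis CA array 1 lies level with the highest DMSO array (0.0158, against 0.0156).

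A measure of RNA or labelling quality did not overlap between the groups for part of the control transcripts. The log2 ratio of 3' to 5' signal, averaged over actin and the added controls dap and thr, was 2.02, 2.08 and 2.17 on the CA arrays, against 2.31, 2.40 and 2.29 on the DMSO arrays (exact 2-sided permutation p = 0.1, the smallest that 3 against 3 arrays allow). These are the 3 controls with the largest differences, between -0.26 and -0.24. The ratio differed by -0.10 for phe (exact permutation p = 0.1), by -0.06 for lys (0.6) and by -0.03 for GAPDH (0.2). With the average of the first 3 controls as a covariate the members' median was -0.07 and that of the cyclin E and E2F genes -0.16, with 0 of 51 members at an unadjusted p under 0.05 (3.01% of all measured genes lower). Single genes shifted both ways in that fit. GINS3 had -0.24, E2F3 -0.12, E2F7 -0.17, RFC2 -0.16, E2F8 -0.31 and CDT1 -0.25, farther from 0 than without the covariate. Nearer to 0 were CCNE2 at -0.24, CCNE1 at -0.13, CLSPN at -0.09, RRM2 at -0.08 and SLBP at -0.03. Because the averaged ratio did not overlap between the groups, this fit cannot separate it from the treatment. Whether RNA or labelling quality has a part in the small differences was not tested.

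When limma's prior variance was let depend on the mean, 3 members were called, all lower in CA, against 1.23% of measured genes called in either direction and 0.492% called lower. These were CDT1 (limma adjusted p = 0.0131), CCNE2 (0.0197) and RRM2 (0.0413). Next, and not called, were E2F8 (0.0508), CCNE1 (0.0757), E2F2 (0.0833) and GMNN (0.0884). In each of these genes every CA array lay below every DMSO array, so leaving out an array could not change the sign. Without each array in turn CCNE2 lay between -0.40 and -0.27 and CDT1 between -0.24 and -0.20. On the scale of the 3' control RNAs CCNE1 and RRM2 turned to 0.02 and 0.07.

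Further genes of the pathway lie outside the member list. Of 40 other replication genes 38 were measured. Of these, 28 had lower and 10 higher fitted values, where 56.5% of all measured genes were lower, and the median was -0.04. MCM9, a helicase paralogue of recombination repair, was the 1 gene lower at an unadjusted p under 0.05, with 0 higher. The shares at that p over all measured genes were 5.02% lower and 3.59% higher. MCM9 had a log2 difference of -0.14 (-0.27 to -0.01, limma adjusted p = 0.486), DNA2, a nuclease and helicase of lagging strand processing, -0.09 (-0.19 to 0.0025), and DBF4, the activator of the CDC7 kinase, 0.10 (-0.0037 to 0.21). In 8 of the 38 the CA arrays were all below and in 2 all above the DMSO arrays, against 9.95% and 6.14% of measured genes. Among 12 other E2F partners, pocket proteins and DREAM complex subunits, 0 were at an unadjusted p under 0.05 and 0 were called by either limma fit. E2F4, a repressive E2F, had 0.17 (-0.0025 to 0.34), RBL1, the pocket protein p107, -0.13 (-0.43 to 0.16) and LIN54, a DREAM subunit, -0.08 (-0.24 to 0.08).

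Genes of G2 and mitosis, the next phase, are given for comparison. Of 22 listed, 21 were measured (not UBE2C), and 14 had higher and 7 lower fitted values in CA, where 56.5% of all measured genes were lower. The median was 0.04 for these genes, against -0.05 for the members. At an unadjusted p under 0.05, 3 of them were higher and 0 lower, against 3.59% and 5.02% of all measured genes. In 4 of the 21 the CA arrays were all above the DMSO arrays and in 0 all below, against 6.14% and 9.95%. The 3 genes were the spindle assembly factor TPX2 at 0.12 (0.01 to 0.22, limma adjusted p = 0.480), the kinesins CENPE at 0.19 (0.02 to 0.37, adjusted p = 0.497) and KIF20A at 0.11 (0.01 to 0.22, adjusted p = 0.501). On the RMA scale G1/S and G2/M genes therefore had medians of opposite sign, a difference that was not tested. With 3' control scaling, the members' median was above 0 as well. With 5' control scaling, the members' median was -0.01.

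**Figure D4:**
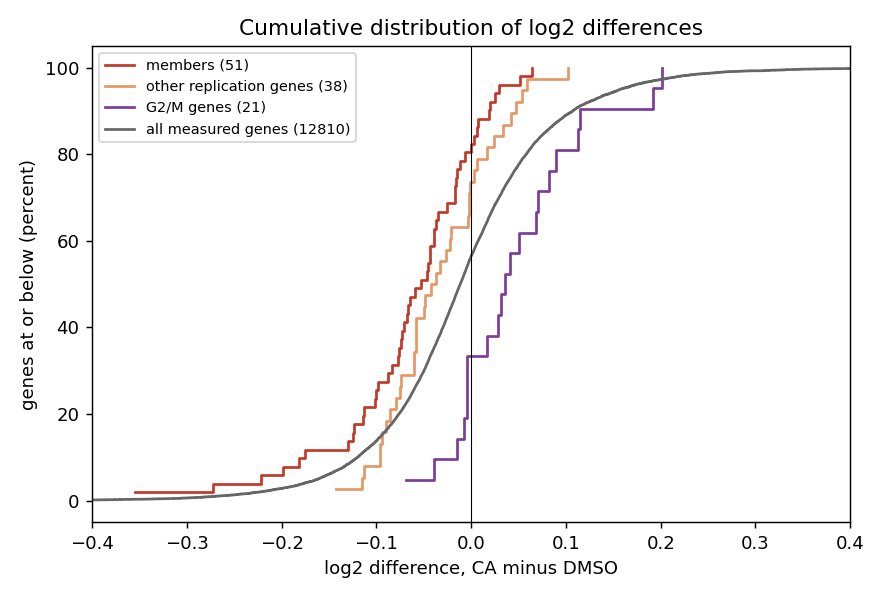
Cumulative share of genes (y axis, percent) at or below a log2 difference, CA minus DMSO (x axis, drawn from -0.4 to 0.4), for the 51 members, 38 other replication genes, 21 G2/M genes and all 12810 measured genes. The member curve lies to the left of that of all genes, at medians of -0.05 and -0.01, and the G2/M curve to the right, at 0.04.

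The identity of the cells was checked on markers. All 7 erythroid and leukaemia markers with a single-symbol probe set (EPOR, GATA1, HBZ, KLF1, LYL1, TAL1 and TFRC) were measured, with means from 6.08 to 12.2. Of the markers of other cell types, most also passed the filter. These were CD3D, CD3E and CD3G of T cells, CD79A and PAX5 of B cells, CSF1R and MARCO of macrophages, and COL1A1, COL1A2 and DCN of fibroblasts. CD3D averaged 9.05 in CA and 9.08 in DMSO, COL1A1 6.97 in CA and 6.92 in DMSO, and COL1A2 5.89 in CA and 5.86 in DMSO. CD2, MS4A1, CD14, CD163 and COL3A1 did not pass.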

How the data were processed

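Per the labels' protocols, RNA was extracted with a column kit or TRIzol (which sample had which is not stated) and labelled by 3' in vitro transcription. The authors deposited 1 table of log2 values, made with RMA in the affy package per the submitters' processing notes (version not given in the sources used here). RMA sets arrays to a common level, which hides any shift common to most genes. Of 54675 probe sets, 62 controls were left out, and 27307 whose mean over the 6 arrays reached the median probe set's mean (3.49) were tested. A gene was read from its brightest tested single-symbol probe set in the platform annotation. CA and DMSO were compared with limma 3.58.1 (lmFit and eBayes, R 4.3.3), 2-sided, with no block and Benjamini-Hochberg adjustment over all tested probe sets, threshold 0.05. The steps were tested on simulated data. The p-values measure the spread between wells of 1 experiment, and 3 arrays a group limit the precision.

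Members, lists and alternatives were chosen with earlier results of these data known. Given in full are members with an unadjusted p under 0.05 and, in each group of members, the one with the highest signal and the one with the largest difference. From the other lists up to 3 genes by smallest p are named. Other members are given with less detail, and E2F1, TYMS and further probe sets were chosen after their values were seen. Same-numbered arrays were checked for pairing: the correlations of their deviations from the group means were -0.07, 0.01 and 0.06. Those of differently numbered arrays ran from -0.11 to 0.09. With 3 arrays a group this check cannot exclude a pairing. Promoter sequences are from RefSeq (GRCh38.p14).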

Additional observations from a re-analysis of the deposited data

How the results depend on the processing

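None of the 51 members was called in the fit reported or without any array in turn. Members were called with the mean-dependent variance (3, against 1.23% of all measured genes), with a filter at the 75th percentile (2, CDT1 and E2F2, against 1.21%) and with 3' control scaling (1, UNG, higher in CA, against 1472 of 12810 genes). The number of probe sets called, 26 in the fit reported, was 285 with the mean-dependent variance, 162 with the stricter filter, 5 without a filter, 3691 with 3' control scaling, 0 with the 3'/5' covariate, 1 without shared probe sets and 2 to 5 without an array. With the replicate number as a block it was 0 as well, with 6 members lower at an unadjusted p under 0.05 (4.51% of all measured genes). The number of such members, 9 (5.02% of all measured genes), was 17 (6.87%) with the mean-dependent variance and 12 (8.64%) with the stricter filter. It was 0 (0.148%) with 3' and 2 (0.952%) with 5' control scaling, 0 (3.01%) with the covariate and 5 to 13 without an array. Members with all CA arrays below DMSO, 20, were 0 with 3' and 3 with 5' control scaling (all measured genes 0.219% and 1.80%). They were 11 of 38 without shared probe sets (9.49%), and 21 to 29 without an array, where 13.6% to 20.1% of all measured genes qualify. The median of the members was 0.143 with 3' and -0.0101 with 5' control scaling, otherwise -0.07 to -0.04. That of the cyclin E and E2F genes was 0.0516 with 3' scaling. Recomputing it and the count of members below DMSO was chosen after seeing the data.

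Of 283 recomputed values for the 16 members named in full, 21 changed sign, 11 of them with 3' control scaling, where GMNN had 0.0941, GINS3 0.0718, E2F3 0.152, E2F7 0.0825, CCNE1 0.0206, PCNA 0.180, RFC2 0.0973, RRM2 0.0710, DUT 0.189, SLBP 0.143 and CLSPN 0.0145. This scaling adds the same amount to every difference by construction. The other 10 were near 0. With 5' control scaling PCNA had 0.0270 and DUT 0.0360. PCNA had 0.000954 after quantile normalisation again and 0.000105 after centring, where DUT had 0.00908. DUT also had 0.0133 without shared probe sets and -0.0173 to 0.00666 without an array. With the covariate CDC45 had -0.000371, and with the mean of a gene's probe sets E2F3 had 0.0168 and CLSPN 0.0291. For E2F3 and CLSPN the change follows from averaging with other probe sets of opposite sign. For the quantile, covariate and left-out array settings the cause was not tested.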
